A study of Mus musculus with 4 samples.

Results

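The enzymes that make and degrade retinoic acid and the proteins that carry retinoids were examined in sorted cells of the postnatal mouse retina. The set has 9 genes of the 21829 in the tables, chosen by name for their function with earlier results of these data known. They are the retinaldehyde dehydrogenases Aldh1a1, Aldh1a2 and Aldh1a3, the cytochromes P450 Cyp26a1, Cyp26b1 and Cyp26c1, the retinaldehyde-binding protein Rlbp1, and the cellular retinoic acid-binding proteins Crabp1 and Crabp2. All 9 were listed with the Cufflinks status OK in every library, and none was removed by a filter on low values.

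Retinas of FVB/N mice (the strain in the sample labels) at postnatal day 1 (P1) and postnatal day 4 (P4) were dissociated and sorted by EGFP. All cells carried the same transgene, in which a promoter fragment of the Notch target gene Hes1 drives a destabilized EGFP, so the EGFP-positive fraction (pHes1_EPC) is defined by recent promoter activity and not by a cell type. The EGFP-negative fraction (pHes1_ENC) of the same age served as the comparison and holds the remaining retinal cells. RNA-seq gave 1 library for each fraction at each age, 4 in all, so there is no replicate, no test between groups was possible, and every difference below is a description of these libraries.

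Retinoic acid is made in cells in steps. Retinol is oxidized to retinaldehyde by retinol dehydrogenases, retinaldehyde is oxidized to retinoic acid by the Aldh1a enzymes, and the Cyp26 enzymes hydroxylate retinoic acid and so end its action. In the developing mouse eye Aldh1a1 is known for expression in the dorsal retina and Aldh1a3 in the ventral retina, with Cyp26 enzymes in a band between them. Rlbp1 (CRALBP) binds 11-cis retinoids and is known from Müller glia and from the retinal pigment epithelium, where it takes part in the visual cycle.

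The best known target of retinoic acid among these genes is Cyp26a1, whose own promoter holds a retinoic acid response element. This element is shown because Cyp26a1 exceeded the other 8 genes in how much higher it was in pHes1_EPC at P1. A response element of the direct repeat type was searched as any pair of the half-sites AGGTCA and its variants (AGTTCA or GGGTCA or else GGTTCA) with 5 bases between them, on both strands, in the 250 bases before each gene's start (RefSeq, GRCm38.p6). Promoters were found for 7 of the 9 genes, and a match was present in that of Cyp26a1 alone. The whole window, which lies at chr19:37697558-37697807 on the plus strand, is printed 5′ to 3′ with the match in capitals.

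Cyp26a1: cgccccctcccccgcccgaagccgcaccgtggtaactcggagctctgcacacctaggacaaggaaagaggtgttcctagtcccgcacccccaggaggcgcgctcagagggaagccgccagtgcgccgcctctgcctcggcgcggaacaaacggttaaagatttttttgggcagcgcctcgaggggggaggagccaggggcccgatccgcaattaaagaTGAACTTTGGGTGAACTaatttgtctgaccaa

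The match spans bases -32 to -16 before the gene's start and reads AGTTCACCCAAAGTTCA on the strand opposite to the gene. Such a match was present before the start of 28 of 27025 genes, or 0.104%. With 1 base between the half-sites a match was found for 0.196% of genes and with 2 bases for 0.204%, and none of these was a promoter of the 9 genes. The matches are letters in a window and do not show that a receptor binds there.

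The values are FPKM, in which the fragments of a gene are scaled for transcript length and library size. The interval beside a value is the 95% interval of Cufflinks, which covers counting and assignment error within 1 library and no variation between mice or sorts. A difference is given on the scale of log2(FPKM + 1), and a gene is called higher or lower where that difference exceeds 1 in size. A ratio is that of the FPKM themselves, and its range sets the lower bound of 1 interval against the upper bound of the other. The FPKM of the 21829 genes summed to between 277426 and 372004 in a library, the highest sum being that of P4 pHes1_EPC, and between 11459 and 12109 genes reached an FPKM of 1. Hes1 itself was higher in pHes1_EPC by 2.59 at P1 and 4.37 at P4 on the log2(FPKM + 1) scale.

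At P1, 6 of the 9 genes were called higher in pHes1_EPC than in pHes1_ENC (Aldh1a1, Aldh1a3, Cyp26a1, Cyp26c1, Rlbp1 and Crabp2), where 6.1% of all genes were called higher. Only Crabp1 was called lower, beside 6.79% of all genes. At P4, 4 were called higher (Aldh1a1, Cyp26a1, Rlbp1 and Crabp2), beside 9.85% of all genes, and Crabp1 alone was again called lower, beside 5.42%. The median log2 difference of the 9 genes was 1.78 at P1 and 0.91 at P4, against 0 for all genes at both ages. For the 12942 genes that reached an FPKM of 1 in any library it was 0.02 at P1 and 0.15 at P4. All 6 higher genes at P1 and all 4 at P4 had Cufflinks intervals that did not overlap between the fractions, and so did Crabp1 at both ages. Nearly all called genes had this: 1324 of 1331 called higher and 1481 of 1483 called lower at P1. At P4 it was 2133 of 2150 called higher and 1183 of 1184 called lower, so separate intervals do not set the 9 genes apart.

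The split of calls over all genes moved with the scaling of the libraries. At P4, 64.5% of all called genes were higher in pHes1_EPC, and the share was 48.1% after rescaling to the same FPKM total, 53.1% with median-of-ratios scaling and 49.8% with quantile normalization. The directions of the 5 genes called at both ages held under each of these 3 scalings.

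**Figure D1:**
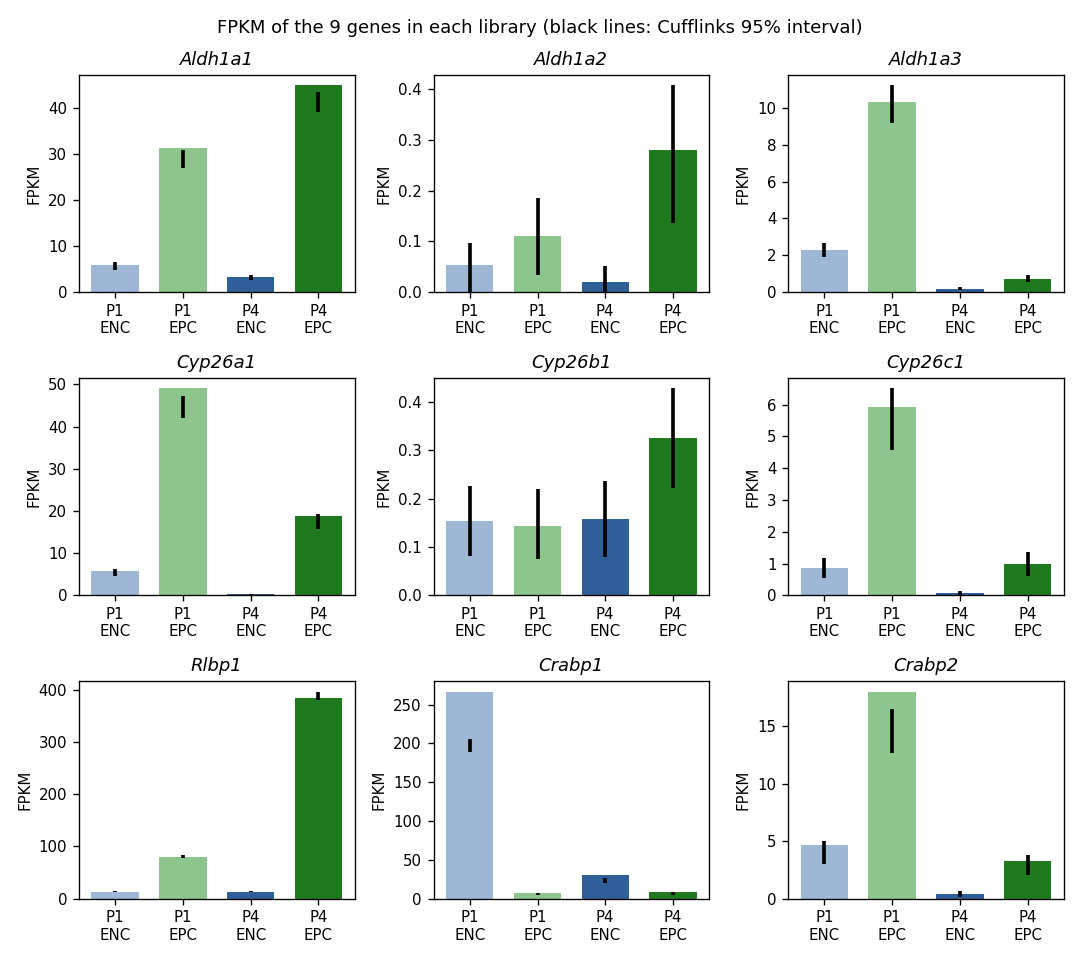
FPKM (linear axis, a scale of its own for each gene) of the 9 genes in the P1 and P4 libraries of pHes1_ENC (ENC, blue) and pHes1_EPC (EPC, green), with 1 library per bar and the Cufflinks 95% interval as a black line. For 6 of the genes the bars of pHes1_EPC stand above those of pHes1_ENC at both ages by more than the intervals, Crabp1 has the opposite order, and 8 of the 36 bars end above their own interval.

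Aldh1a1, the main retinaldehyde dehydrogenase in these libraries, lies on the plus strand of chromosome 19 at 20676472 to 20717952 (NCBI37/mm9, as are all gene positions that follow), with 13 exons in its longest coding transcript. Its FPKM was 5.93 against 31.2 (pHes1_ENC against pHes1_EPC) at P1, and 3.36 against 44.95 at P4. Both pHes1_EPC libraries were thus high and both pHes1_ENC libraries low. The ratio of pHes1_EPC to pHes1_ENC was 5.27 at P1 (range 4.18 to 6.38) and 13.4 at P4 (range 10.2 to 16.6). These ratios correspond to log2 differences of 2.22 and 3.40. Between P1 and P4 the gene was lower in pHes1_ENC by a difference of -0.67 and higher in pHes1_EPC by 0.51, neither of which reached the threshold of 1, although the intervals of the ages did not overlap in either fraction.

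Aldh1a3, the enzyme known from the ventral retina, lies on the minus strand of chromosome 7 at 73535779 to 73572363 with 13 exons. Its FPKM was 2.30 against 10.3 (pHes1_ENC against pHes1_EPC) at P1, and 0.197 against 0.722 at P4. The 2 libraries of P1 were high and those of P4 low, and within each age pHes1_EPC stood above pHes1_ENC. The ratio between the fractions was 4.49 at P1 (range 3.45 to 5.87) and 3.68 at P4 (range 1.84 to 8.71), while the log2 differences were 1.78 and 0.53. The FPKM ratio at P4 exceeded 2 but the log2(FPKM + 1) difference was under the threshold, because the pseudocount of 1 is larger than either FPKM. In pHes1_EPC, Aldh1a3 was lower at P4 than at P1 by 14.3 times (range 10.1 to 21.1), a log2 difference of -2.72 that ranked 14 from the lowest among the 21829 genes. The decrease in pHes1_ENC was 11.7 times (range 6.63 to 25.6), a log2 difference of -1.46.

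Aldh1a2, which makes retinoic acid in the embryonic trunk and in tissues around the eye, lies on the plus strand of chromosome 9 at 71063596 to 71144050 and was near the limit of detection. Its FPKM was 0.0529 and 0.111 in pHes1_ENC and pHes1_EPC at P1, and 0.0191 and 0.280 at P4. The interval reached 0 in both pHes1_ENC libraries. The P4 intervals did not overlap, but the value in P4 pHes1_EPC corresponds to about 16 fragments as read from the width of its interval, and the log2 differences of 0.08 and 0.33 were small.

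The summed FPKM of the Aldh1a genes was 8.28 against 41.6 (pHes1_ENC against pHes1_EPC) at P1, and 3.58 against 46.0 at P4. Aldh1a1 made up 71.6% and 74.9% of this sum in the P1 fractions, in the same order, and 94.0% and 97.8% in those of P4. Aldh1a3 supplied 24.8% in P1 pHes1_EPC and 1.57% in P4 pHes1_EPC. The sum in pHes1_EPC was thus similar at the ages while Aldh1a3 made up less of it at P4.

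Cyp26a1, which degrades retinoic acid, lies on the plus strand of chromosome 19 at 37772298 to 37776026 with 7 exons. Its FPKM was 5.76 against 49.1 (pHes1_ENC against pHes1_EPC) at P1, and 0.274 against 18.9 at P4. At each age pHes1_EPC was high and pHes1_ENC low, and in each fraction P1 was above P4. The ratio between the fractions was 8.52 at P1 (range 6.62 to 10.3), a log2 difference of 2.89 that ranked 10 from the highest of all genes. At P4 the ratio was 69.0 (range 37.6 to 145), a log2 difference of 3.96 that ranked 50. The wide range at P4 reflects the small value in pHes1_ENC, which corresponds to about 14.8 fragments. From P1 to P4 the gene was lower by 21.1 times in pHes1_ENC (range 10.9 to 47.9) and by 2.60 times in pHes1_EPC (range 2.19 to 3.003), or by log2 differences of -2.41 and -1.33.

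Cyp26c1, a second enzyme of the family, lies upstream of Cyp26a1 on the same strand, at 37760170 to 37767797 of chromosome 19. Between the 2 genes are 4500 bases and no other gene of the tables. The FPKM of Cyp26c1 was 0.859 against 5.94 (pHes1_ENC against pHes1_EPC) at P1, and 0.0580 against 0.995 at P4. The order of the libraries by FPKM was therefore pHes1_EPC before pHes1_ENC within each age, and P1 before P4 within each fraction, as for its neighbour. The ratio between the fractions was 6.91 at P1 (range 3.92 to 12.1) and 17.2 at P4, where it was at least 4.90 by the intervals and has no upper limit because the interval in P4 pHes1_ENC reached 0. As log2 differences these were 1.90 and 0.91, the latter just under the threshold.

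The next gene upstream, Exoc6, which codes for a subunit of the exocyst, had an FPKM of 3.48 in pHes1_ENC against 8.50 in pHes1_EPC at P1, with 4.14 against 5.39 at P4. Its log2 differences were 1.08 and 0.31, and it was not lower at P4 in pHes1_ENC. Downstream, Myof did not exceed an FPKM of 0.525 in any library. Cep55, a gene of cytokinesis further downstream, had an FPKM of 9.79 against 32.3 at P1 and 0.959 against 15.8 at P4, and so shared the order of Cyp26a1 over the 4 libraries.

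Cyp26b1, the remaining member, lies on the minus strand of chromosome 6 at 84521408 to 84543902. Its FPKM was 0.154 against 0.144 (pHes1_ENC against pHes1_EPC) at P1, and 0.157 against 0.325 at P4. The intervals of the fractions overlapped at both ages, and no difference between the fractions was detectable at this depth. In pHes1_EPC P4 was 2.26 times P1 (range 1.01 to 5.62), with intervals that just did not overlap and a log2 difference of 0.21. These 2 values correspond to about 40.1 and 16.9 fragments. The log2 differences between the fractions were -0.01 and 0.20.

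The summed FPKM of the Cyp26 genes was 6.77 against 55.2 (pHes1_ENC against pHes1_EPC) at P1, and 0.489 against 20.2 at P4. Cyp26a1 made up 89.0% of the sum in P1 pHes1_EPC and 93.5% in P4 pHes1_EPC. The ratio of the Aldh1a sum to the Cyp26 sum was 1.22 in P1 pHes1_ENC (range 0.873 to 1.77) and 0.755 in P1 pHes1_EPC (range 0.668 to 0.907). At P4 it was 7.31 in pHes1_ENC (range 3.50 to 19.8) and 2.28 in pHes1_EPC (range 1.89 to 2.70). The ranges of the P1 and P4 libraries did not overlap in either fraction, so transcripts for synthesis stood higher relative to those for breakdown at P4. The ratio concerns transcripts and gives no measure of enzyme activity or of retinoic acid.

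**Figure D2:**
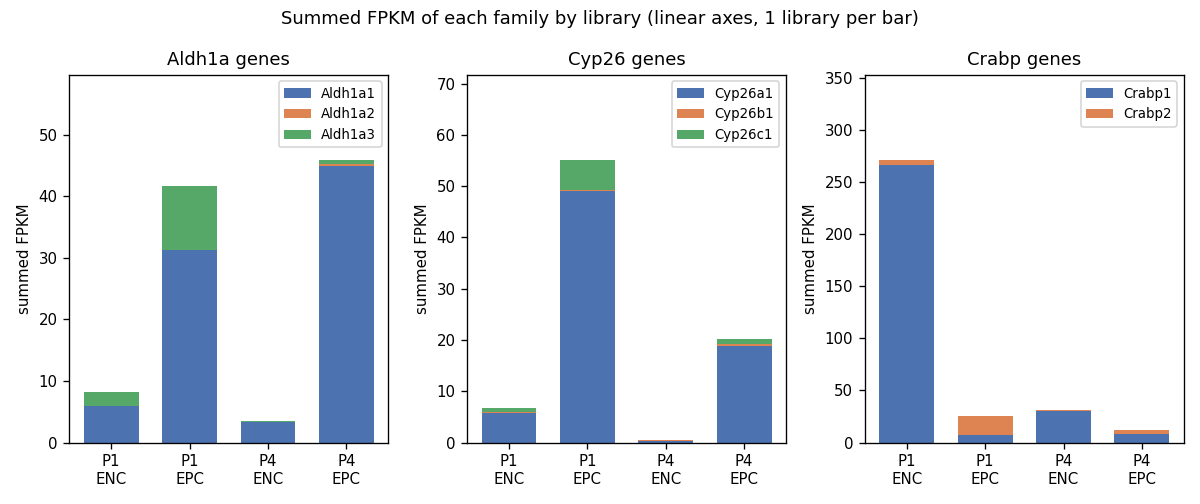
Summed FPKM (linear axes, a scale of its own for each family) of the Aldh1a, Cyp26 and Crabp genes in the 4 libraries, with 1 library per bar and the colours showing each gene. The Aldh1a and Cyp26 bars are tallest in pHes1_EPC, where Aldh1a3 makes up 24.8% of the Aldh1a sum at P1 and 1.57% at P4, while the Crabp bar is tallest in P1 pHes1_ENC and consists there almost wholly of Crabp1.

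Rlbp1, the 11-cis retinoid carrier, lies on the minus strand of chromosome 7 at 86519756 to 86531913 with 9 exons, and had the highest FPKM of the 9 genes in the 2 pHes1_EPC libraries. Its FPKM was 13.1 against 80.4 (pHes1_ENC against pHes1_EPC) at P1, and 13.1 against 384 at P4. The pHes1_ENC libraries were alike, with overlapping intervals and a log2 difference of -0.00197 between the ages. The pHes1_EPC libraries were both high, and P4 was 4.77 times P1 (range 4.52 to 5.13), a log2 difference of 2.24. Between the fractions the ratio was 6.13 at P1 (range 5.42 to 6.999) and 29.3 at P4 (range 26.7 to 33.1). The log2 difference at P4, 4.77, ranked 4 of 21829 genes, and the one at P1, 2.53, ranked 29.

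Because Rlbp1 is also expressed by the pigment epithelium, the markers of that tissue are given beside it. Of 11 markers, 2 were called higher in pHes1_EPC at P1 and 6 at P4. Their summed FPKM was 13.5 and 46.6 in pHes1_ENC and pHes1_EPC at P1, and 15.0 and 143.9 at P4. Without Rrh the sums were 6.39, 4.52, 13.1 and 91.4 in the same order, and the other marker called higher at P1 was Pmel, with an FPKM of 0.209 in pHes1_ENC and 1.98 in pHes1_EPC. In pHes1_EPC 7 of the 11 markers were called higher at P4 than at P1 and 0 lower. In P4 pHes1_EPC the pigment genes Pmel and Dct had an FPKM of 36.5 and 15.0, while Ttr had 23.1, Rrh 52.5, Rgr 6.85 and Tyrp1 5.64. The isomerase of the visual cycle, Rpe65, had an FPKM of 0.422 in that library against 0.0239 in P4 pHes1_ENC, and Lrat had 0.112 against 0. The part of pigment epithelial RNA in the values of Rlbp1 and of Aldh1a1, which the pigment epithelium can express too, was not tested.

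Of 10 Müller glia markers, 6 were called higher in pHes1_EPC and 1 lower (Clu) at P1, and 8 were called higher and 0 lower at P4, with a summed FPKM of 1330 and 2468 in the 2 pHes1_EPC libraries. All 6 retinal progenitor markers were also called higher in pHes1_EPC at both ages. In bulk RNA such as this, a smaller share of cells of a type cannot be told apart from less RNA of the gene per cell, for these markers and for each of the 9 genes.

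Crabp1, which binds retinoic acid in the cytoplasm, was the only one of the 9 genes that was lower in pHes1_EPC at both ages by more than the threshold. It lies on the plus strand of chromosome 9 at 54612615 to 54620916 with 4 exons. Its FPKM was 266.9 against 7.64 (pHes1_ENC against pHes1_EPC) at P1, and 30.5 against 8.36 at P4. P1 pHes1_ENC stood far above the other libraries, and the pHes1_EPC libraries were alike at the ages, with overlapping intervals. The FPKM was lower in pHes1_EPC by 34.9 times at P1 (range 25.2 to 43.9), a log2 difference of -4.95 that ranked 9 from the lowest of all genes. At P4 it was lower by 3.64 times (range 2.58 to 4.99), a log2 difference of -1.75. In pHes1_ENC the level at P4 was lower than at P1 by 8.75 times (range 7.29 to 10.1), a log2 difference of -3.09.

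The FPKM of Crabp1 lay above its own Cufflinks interval in all 4 libraries, and in P1 pHes1_ENC the interval was 189 to 205. The same was so for Aldh1a1 in both pHes1_EPC libraries and for Cyp26a1 and Crabp2 in P1 pHes1_EPC. These 8 values are therefore less certain in level than the intervals imply. With the midpoint of the interval in place of the FPKM, an alternative added once the values were known, the same numbers of the 9 genes were called in each direction in all 4 comparisons.

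Amacrine cells are among those known to contain Crabp1. All 6 amacrine cell markers were called lower in pHes1_EPC at P1 and 4 of 6 at P4. Their summed FPKM was 249 against 12.1 (pHes1_ENC against pHes1_EPC) at P1, and 79.8 against 18.3 at P4. Of the 79.8 in P4 pHes1_ENC, Slc6a9 supplied 62.6, and with age in pHes1_ENC it was called higher while the other 5 markers were called lower, as Crabp1 was. Their part in the level of Crabp1 was not tested.

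Crabp2, which carries retinoic acid to its receptors in the nucleus, lies on the plus strand of chromosome 3 at 87752615 to 87757294 and also has 4 exons. Its FPKM was 4.69 against 18.0 (pHes1_ENC against pHes1_EPC) at P1, and 0.394 against 3.26 at P4. The order was thus opposite to that of Crabp1 between the fractions, with pHes1_EPC high at both ages. The ratio was 3.84 at P1 (range 2.51 to 5.45) and 8.26 at P4 (range 3.07 to 29.1), or log2 differences of 1.74 and 1.61. The value in P4 pHes1_ENC corresponds to about 9 fragments. From P1 to P4 the log2 difference was -2.03 in pHes1_ENC and -2.16 in pHes1_EPC, where it ranked 29 from the lowest of all genes.

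As a share of the summed FPKM of both Crabp genes, Crabp1 made up 98.3% in P1 pHes1_ENC and 98.7% in P4 pHes1_ENC. In pHes1_EPC its share was 29.8% at P1 and 71.98% at P4. At P1 the predominant binding protein transcript thus differed between the fractions, with Crabp2 above Crabp1 in pHes1_EPC.

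**Figure D3:**
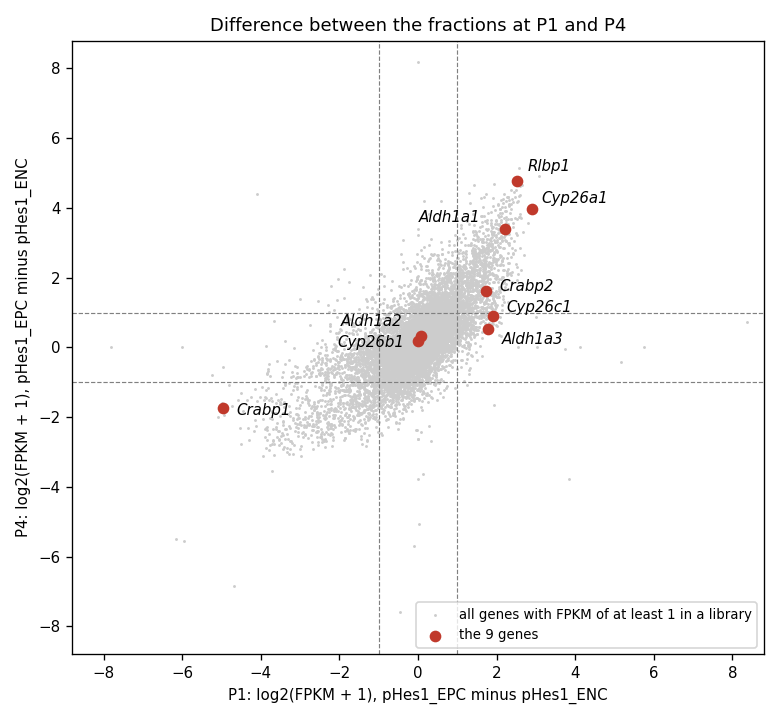
Difference between the fractions at P4 (vertical axis) against that at P1 (horizontal axis), both on log2(FPKM + 1) as pHes1_EPC minus pHes1_ENC, for the 9 genes (red) and for all genes that reach an FPKM of 1 in any library (gray). Broken lines mark a difference of 1 in either direction. Rlbp1, Cyp26a1 and Aldh1a1 lie at the upper right edge of the cloud, Cyp26c1 and Aldh1a3 pass the line at P1 only, and Crabp1 lies alone of the 9 at the lower left.

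With age, 4 of the 9 genes were called lower in pHes1_ENC at P4 than at P1 (Aldh1a3, Cyp26a1, Crabp1 and Crabp2), beside 5.94% of all genes, and 0 were called higher, beside 2.77%. In pHes1_EPC 4 were called lower (Aldh1a3, Cyp26a1, Cyp26c1 and Crabp2), beside 2.57% of all genes, and 1 was called higher (Rlbp1), beside 4.17%. Aldh1a3, Cyp26a1 and Crabp2 were thus called lower in both fractions. The median log2 difference of the 9 genes was -0.81 in pHes1_ENC and 0.12 in pHes1_EPC, against 0 for all genes. For the 12942 genes that reached an FPKM of 1 in any library it was -0.007 in pHes1_ENC and 0.17 in pHes1_EPC. The median of the 9 genes in pHes1_EPC was thus not above that of expressed genes. Of all genes called in pHes1_EPC, 61.9% were higher at P4, and this share was 33.8% after rescaling to the same total, 44.1% with median-of-ratios scaling and 44.3% with quantile normalization. In pHes1_ENC the share was 31.8%, and with these scalings it was 23.3%, 32.6% and 42.8% in the same order. The comparisons between ages and between fractions use the same 4 libraries and are not independent of one another.

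The genes whose profile over the 4 libraries was nearest to that of each member are given as a description. The distance is Euclidean on log2(FPKM + 1) after subtraction of the mean of each gene, over the 8403 genes that reached an FPKM of 10 in any library. The nearest to Rlbp1 were Dbi, Crym and Sparc, and Dbi had an FPKM of 86.1, 407, 83.9 and 1557 in the order P1 pHes1_ENC, P1 pHes1_EPC, P4 pHes1_ENC and P4 pHes1_EPC. The nearest to Aldh1a1 were Slc35f1, Hey2, a Notch target gene of the Hes family, and Tns3. Hey2 had an FPKM of 7.07, 34.9, 3.39 and 46.6 in the same order, a profile that parallels that of Aldh1a1 in each library.

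The profile of Cyp26a1 was nearest to those of Tcf19, Ccnd1 and Rrm2. Ccnd1 codes for cyclin D1 and had an FPKM of 243, 1406, 28.5 and 532. Rrm2 codes for a ribonucleotide reductase subunit used in DNA synthesis. Crabp2 was nearest to Casc5, Espl1 and Fanca, of which Casc5 is a kinetochore gene and Espl1 codes for separase. Casc5 had an FPKM of 4.26, 16.9, 0.435 and 3.53. The progenitor markers, of which Ccnd1 is one, had a summed FPKM of 435, 2297, 115 and 1194, which is the order of Cyp26a1 over the libraries. Their part in the level of Cyp26a1 was not tested.

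Aldh1a3 was nearest to Fam38a, Ano1 and Sned1. Fam38a, the older symbol of a mechanically gated channel, had an FPKM of 3.42, 17.4, 0.812 and 2.00. Among the 6 members that reached an FPKM of 10, the nearest pair was Aldh1a3 and Crabp2 at a distance of 0.767. Crabp1 was nearest to C1ql2, Tcfap2b and Cxcl14. Tcfap2b is a transcription factor of amacrine and horizontal cells and had an FPKM of 108.5, 2.19, 7.93 and 1.24. It was thus highest in P1 pHes1_ENC, with P4 pHes1_ENC next and both pHes1_EPC libraries lower, as Crabp1 was.

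The other genes of retinoid handling were counted from lists of 36 genes, of which 35 were in the tables. Between the fractions 4 were called higher and 6 lower in pHes1_EPC at P1, beside 6.1% and 6.79% of all genes. At P4 it was 6 higher and 5 lower, beside 9.85% and 5.42%. Between the ages 6 were called higher and 1 lower at P4 in pHes1_ENC, beside 2.77% and 5.94% of all genes. In pHes1_EPC it was 9 higher and 0 lower, beside 4.17% and 2.57%. The 9 included Rbp3, Rdh8, Rdh12, Abca4, Rxrg, Ttr, Rgr and Rdh5. All 6 rod markers were also called higher at P4 in pHes1_EPC, with a summed FPKM of 41.9 at P1 and 715 at P4. Between the ages in pHes1_EPC, Rxrg fell under the threshold with median-of-ratios scaling and with quantile normalization. After rescaling to the same total, 1 gene of retinol uptake and binding was called lower there. The part of rod and pigment epithelial RNA in these counts was not tested.

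Among 7 genes of retinol uptake and binding, Rbp7, an intracellular retinol carrier, had an FPKM of 0.186, 3.41, 0.10 and 6.59 in the order P1 pHes1_ENC, P1 pHes1_EPC, P4 pHes1_ENC and P4 pHes1_EPC. It was called higher in pHes1_EPC at both ages, with log2 differences of 1.89 and 2.79. Rbp3, the interphotoreceptor retinoid-binding protein that photoreceptors secrete, had an FPKM of 193, 12.9, 600.0 and 77.8 and was called lower at both ages. Fabp5, a fatty acid-binding protein that can carry retinoic acid, was called lower at P1 with a difference of -1.05, and its difference at P4 was -0.47. Ttr, the retinol transport protein of plasma that the pigment epithelium also makes, was called higher at P4 alone, with an FPKM of 23.1 in P4 pHes1_EPC and at most 0.308 elsewhere. The median of the 7 differences was 0 at both ages.

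Of 15 retinol and retinal oxidoreductases, 0 were called higher and 2 lower at P1, and 2 were called in each direction at P4. Rdh10, the retinol dehydrogenase that supplies the Aldh1a enzymes in the embryo, had an FPKM of 20.5, 40.8, 33.4 and 63.8, and its differences of 0.96 and 0.91 were just under the threshold. Rdh8 and Rdh12, the photoreceptor enzymes, were called lower in pHes1_EPC at both ages, with an FPKM for Rdh12 of 4.10, 1.09, 58.9 and 11.1. Rdh5, a pigment epithelial enzyme of the visual cycle that Müller glia also contain, was called higher at P4 with a difference of 1.26, as was Dhrs4 with 1.16, but each fell under the threshold in at least 1 of the 3 scalings. Dhrs3, which turns retinaldehyde back to retinol, had differences of 0.52 and -0.65, neither of them past the threshold.

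In the visual cycle, 1 of 7 genes was called higher and 1 lower at both ages. Rrh, the opsin-like peropsin of the pigment epithelium, had an FPKM of 7.08, 42.0, 1.94 and 52.5. Its values were high in both pHes1_EPC libraries, with log2 differences of 2.41 and 4.18. Abca4, the retinoid transporter of photoreceptor discs, had an FPKM of 4.71, 0.168, 19.6 and 3.57 and was called lower at both ages. The rod markers moved with Rbp3, Rdh8, Rdh12 and Abca4, all 6 of them called lower in pHes1_EPC at both ages.

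Of the 6 receptors, Rarb, itself a known target of retinoic acid, had an FPKM of 4.39, 12.2, 2.69 and 15.3 and was called higher in pHes1_EPC at both ages, with differences of 1.29 and 2.14. Rara was called higher at P1 alone, with a difference of 1.04 that did not pass the threshold after rescaling to the same total, and had one of 0.16 at P4. Rxrg, a retinoid X receptor found in cones, had an FPKM of 7.14, 0.994, 13.3 and 3.03 and was called lower at both ages. The medians of the 6 differences were 0.33 at P1 and -0.30 at P4.

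**Figure D4:**
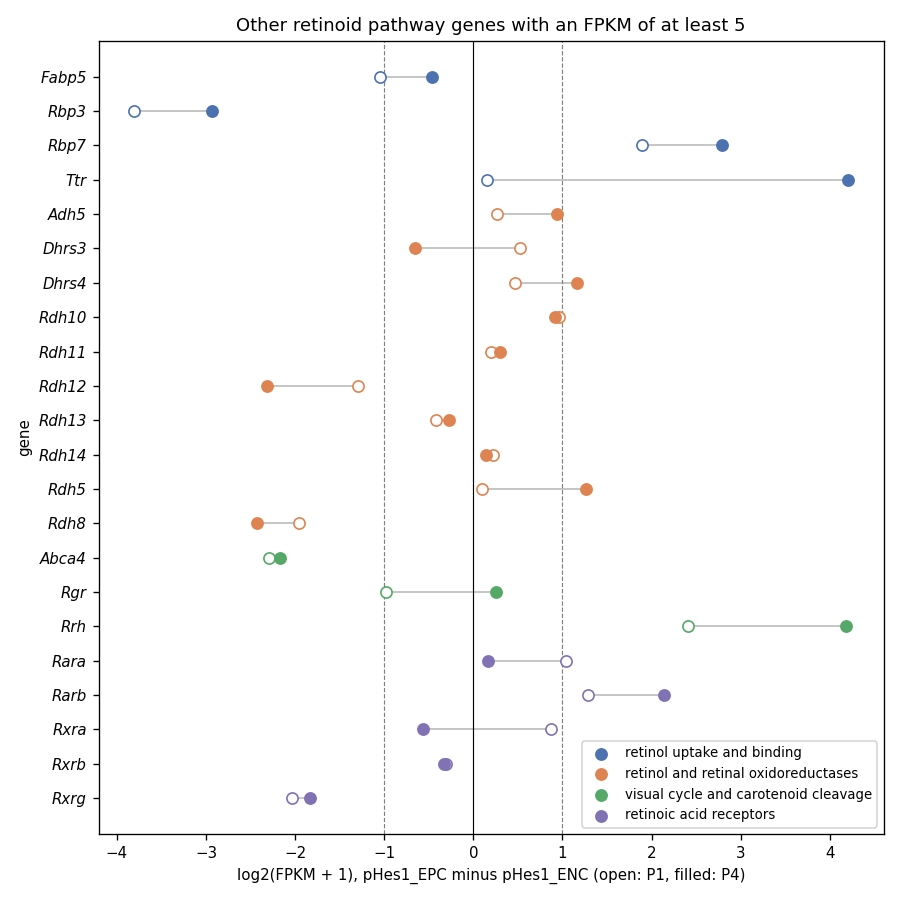
Difference between the fractions on log2(FPKM + 1), pHes1_EPC minus pHes1_ENC, at P1 (open circles) and P4 (filled circles) for the listed retinoid pathway genes other than the 9 that reach an FPKM of 5 in any library, coloured by list. Broken lines mark a difference of 1 in either direction. Rbp7, Rrh and Rarb lie above 1 at both ages, Ttr at P4 alone, and Rbp3, Rdh8, Rdh12, Abca4 and Rxrg below -1 at both.

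Genes that mark the dorsal and the ventral retina were set beside Aldh1a1 and Aldh1a3. At P1, 0 of 6 dorsal and 0 of 4 ventral genes were called in either direction between the fractions. At P4, 4 of the dorsal genes were called higher in pHes1_EPC (Tbx2, Tbx3, Efnb1 and Efnb2), and of the ventral genes Ephb2 and Ephb3. Tbx2 and Ephb2 did not pass in every scaling. The dorsal transcription factor Tbx3 had an FPKM of 23.5, 23.0, 4.43 and 28.5 in the order P1 pHes1_ENC, P1 pHes1_EPC, P4 pHes1_ENC and P4 pHes1_EPC, so P4 pHes1_ENC alone was low. The ventral transcription factor Vax2 had an FPKM of 19.6, 18.3, 21.0 and 22.1. In pHes1_EPC, where Aldh1a3 was 14.3 times lower at P4 than at P1, 0 of the 6 dorsal and 0 of the 4 ventral genes were called between the ages, apart from 1 ventral gene that was called lower after rescaling to the same total. In pHes1_ENC, where Aldh1a3 was 11.7 times lower, 2 dorsal genes (Tbx3 and Efnb2) and 2 ventral genes (Ephb2 and Ephb3) were called lower at P4. The dorsal number was 4 after rescaling to the same total, 2 with median-of-ratios scaling and 3 with quantile normalization. The ventral number was 2 in each.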

How the data were processed

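The 9 genes, the gene lists and the comparisons were chosen with earlier results of these data known. The 36-base single-end reads were aligned by the authors with TopHat2 2.0.8b (genome NCBI37/mm9, at most 50 positions per read) after base calls were converted with bcl2fastq 1.8.4, and they deposited the gene FPKM of Cufflinks 2.1.1 with its 95% interval and status. Reads with several positions and genes of similar sequence can therefore share signal. Read counts were not used here, so the depth is unknown beyond what the intervals give. A fragment number in the text is read from the width of an interval as if it were 4 standard deviations of a Poisson count.

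Each table had 23021 lines with 22558 symbols. Lines of small RNAs (795) were left out, and for the 234 symbols that still had several lines that with the highest FPKM was used, leaving 21829 genes. FPKM were used without further scaling. Libraries were grouped by fraction and age from the labels, 1 library for each group, and compared by the difference of log2(FPKM + 1), with a call beyond 1. No statistical test between groups was run. The strain is that of the labels, and the methods of the study name ICR mice as well.

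All 9 genes are named. Of the listed genes, those with an FPKM of at least 5 in a library could be named, and for each member that reached an FPKM of 10, the 3 nearest genes. A gene of the lists is not reported here and is not in their counts. Exoc6, Myof and Cep55 were named for their position, Hes1 for the sort, and Rpe65 and Lrat as defining markers. Symbols of the tables older than those of the lists were matched (Tcfap2a, Tcfap2b). Gene positions come from the deposited tables, exons from the GENCODE annotation of NCBI37, and promoters from RefSeq.

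Alternatives were a pseudocount of 0.1, a ratio without a pseudocount, 3 scalings, a minimum FPKM of 1 for the higher value, genes of status OK throughout, separate intervals as a further condition, lines of a symbol summed and the midpoint of the interval, which was added once the values were known. Of the 3 scalings, that to the same total raised the FPKM of every library before the pseudocount of 1 was added. The calculation of the calls was checked on simulated FPKM with known changes and counting error only. Python 3.11.15, numpy 2.4.6, pandas 2.3.3 and matplotlib 3.10.9 were used.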

Additional observations from a re-analysis of the deposited data

Results flagged for a closer look

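For 4 of the genes the change from P1 to P4 had opposite signs in the fractions, and with 1 library in each group the difference between the changes was not tested. Aldh1a1 had a log2(FPKM + 1) change of -0.67 in pHes1_ENC and 0.51 in pHes1_EPC, which differ by 1.18, and its intervals were separate in both fractions. Crabp1 changed by -3.09 in pHes1_ENC and by 0.12 in pHes1_EPC, where the intervals overlapped, a difference of 3.20. Rlbp1 changed by -0.00197 and 2.24, a difference of 2.24, with overlapping intervals in pHes1_ENC. Aldh1a2 changed by -0.05 and 0.20, a difference of 0.25, with overlapping intervals in both fractions. For Cyp26b1 pHes1_EPC minus pHes1_ENC came to -0.01 for P1 and 0.20 for P4, which differ by 0.21, with overlapping intervals at both ages, and this was not tested either.

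The sign of the change of Crabp1 in pHes1_EPC was the other one under 2 of the 3 scalings, and that of Rlbp1 in pHes1_ENC and that of Cyp26b1 at P1 under 1 of them.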

How the results depend on the processing

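No paired analysis was possible because each comparison sets 1 library against 1 and the labels give no replicate numbers. The members called in each direction stayed within 1.5 times their number under every alternative apart from the pseudocount: at P4, 7 members were higher in pHes1_EPC with a pseudocount of 0.1 and 8 with a ratio without one, against 4, and in pHes1_EPC 3 were higher at P4 than at P1 with that ratio (Aldh1a2, Cyp26b1 and Rlbp1), against 1. The pseudocount weighs most on FPKM under 1, as Aldh1a3 and Cyp26c1 had at P4. Over all genes, calls with a pseudocount of 0.1 and with the ratio numbered 2057 and 2529 higher and 2471 and 2982 lower at P1 (against 1331 and 1483). At P4 they were 3212 and 3625 higher (against 2150) and 1963 and 2491 lower, with 2170 after rescaling to the same total (against 1184). Between the ages they were 1009 and 1405 higher and 2502 and 3150 lower in pHes1_ENC (against 604 and 1297), with 2188 lower after rescaling, and 1713 and 2348 higher and 1162 and 1602 lower in pHes1_EPC (against 911 and 560), with 1417 lower after rescaling and 593 higher with quantile normalization. The median difference of 12942 expressed genes shifted by -0.25 at P4 and -0.29 between the ages in pHes1_EPC after rescaling, by -0.17 and -0.15 with median-of-ratios scaling, and by -0.19 and -0.15 with quantile normalization. In pHes1_ENC between the ages it shifted by -0.13 after rescaling. Rescaling to the same total also lessened the weight of the pseudocount, so the numbers given for it do not show library scaling alone. The difference of Rlbp1 at P4 was 4.35 at its lowest over these scalings. Depth limits Aldh1a2, Cyp26b1 and the P4 pHes1_ENC values of Cyp26c1 and Crabp2, and variation between mice or sorts was not measured.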
